A study of Homo sapiens with 18 samples.

Results

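The genes that make and load small RNAs were followed in BE2C and Kelly, 2 human neuroblastoma cell lines, after infection with short hairpins against AHR. The set holds 10 genes, chosen by name as the machinery that microRNAs and short hairpin RNAs share: DROSHA, DGCR8, XPO5, DICER1, TARBP2, AGO1, AGO2, AGO3, AGO4 and TNRC6A. All 10 had a row in both count tables, of 39368 genes in each, and all 10 passed the filter on low counts in both lines. The largest changes followed the hairpin named shAhR-2. With it DROSHA mRNA was 3.95-fold lower than in the control in BE2C and 4.31-fold lower in Kelly, AGO1 and AGO2 fell, and AGO4 and TNRC6A rose. With shAhR-1 no gene of the set moved by more than 0.462 on the log2 scale. Changes over all genes tested were larger with shAhR-2 as well. Their median absolute log2 fold change was 0.59 with shAhR-2 and 0.29 with shAhR-1 in BE2C, and 0.55 and 0.32 in Kelly.

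In this pathway a long primary transcript is cut in the nucleus by the Microprocessor, made of the nuclease DROSHA and its RNA-binding partner DGCR8. Exportin 5, the product of XPO5, carries the released hairpin to the cytoplasm, where DICER1, helped by the RNA-binding protein TARBP2, trims it to a duplex. An Argonaute protein (AGO1 to AGO4) takes up 1 strand, and TNRC6A, a GW182 protein, links the Argonaute to the enzymes that shorten and decap the target mRNA. A hairpin made from a pLKO vector is transcribed short and enters at the export step, so it does not need DROSHA. The Microprocessor also cuts hairpins in the DGCR8 mRNA itself, a known feedback between the pair.

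There were 6 groups of 3 libraries. In each line these were the pLKO-GFP vector control, shAhR-1 and shAhR-2, where both hairpins target AHR, the aryl hydrocarbon receptor gene. All cells thus carried a lentiviral pLKO construct, both lines are labelled as neuroblastoma lines, and the series title describes the disease setting as MYCN amplified. The labels give no time after infection and do not tell whether the control makes a hairpin. Nor do they tell whether replicate libraries came from separate cultures, so the spread behind each p-value may be technical. Levels are read counts scaled to library size (CPM), corrected by the trimmed mean of M values (TMM) within a line, and changes are log2 fold changes ± SE from the quasi-likelihood test of edgeR, with p-values adjusted over all genes tested by the Benjamini-Hochberg method. A gene was called when its adjusted p was below 0.05.

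Total counts ran from 32799682 to 45469353 per library, and the mitochondrial share from 14.5% to 25.1%, the highest being the first BE2C shAhR-2 library. Without that library no gene of the set moved by more than 0.0618 on the log2 scale in the BE2C shAhR-2 comparison, and no call changed. All 3 BE2C shAhR-1 libraries were high in this share too, at 24.3% to 24.9%, against 18.8% to 19.4% in the BE2C controls. AHR, the target, had 4, 4 and 6 counts in the BE2C controls, 8, 0 and 0 with shAhR-1, where the first library exceeded every control, and 0 in each library with shAhR-2. In Kelly it had 4, 26 and 29 counts in the controls, 18, 11 and 22 under the shAhR-1 label, and 0, 4 and 0 with shAhR-2. The fall in Kelly with shAhR-2 was called by edgeR (−3.84 ± 0.81, adjusted p = 3.41e-05). The Kelly libraries labelled shAhR-1 were not different by that test (−0.10 ± 0.54, adjusted p = 0.889). Directions in them are thus those of libraries whose label the target gene does not bear out. In BE2C AHR did not enter that test, and its counts with shAhR-1 do not bear out the label either. By an exact 2-sided permutation test, AHR in BE2C had p = 0.4 under shAhR-1 and 0.1 under shAhR-2, and in Kelly 0.8 and 0.2, where 0.1 is the smallest that 3 against 3 allows. By CPM without TMM, all 10 sympathetic neuroblast markers examined were above 1 CPM in every group, and none of 6 leukocyte markers was. Of 7 fibroblast markers 6 were above it in every BE2C group, and 2, 4 and 3 in Kelly (control, shAhR-1, shAhR-2). Of 5 Schwann cell markers 1 was above it in the control and shAhR-1 groups of each line. With shAhR-2 it was 4 in BE2C and 2 in Kelly.

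Promoter sequences are shown for 4 of the 6 genes called in the same direction with shAhR-2 in both lines. These are DROSHA and AGO1 (lower) and AGO4 and TNRC6A (higher). Each is the RefSeq window (GRCh38.p14) of 250 bases before to 50 bases after the annotated start, 5′ to 3′ on the gene's strand, and 9 of the 10 genes had such a window. The capitals mark GCGTG on either strand (GCGTG or CACGC), the core of the element bound by the AHR and ARNT dimer. The E-box CACGTG, a palindrome bound by MYC and MAX proteins, was searched as well, and neither motif contains the other.
DROSHA, chr5:31532044-31532343, minus strand: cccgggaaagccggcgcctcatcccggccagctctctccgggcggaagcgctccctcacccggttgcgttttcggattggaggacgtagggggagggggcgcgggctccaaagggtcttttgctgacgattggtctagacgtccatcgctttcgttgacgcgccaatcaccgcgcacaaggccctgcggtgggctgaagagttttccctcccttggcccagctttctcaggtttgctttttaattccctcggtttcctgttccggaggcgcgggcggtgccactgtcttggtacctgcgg
AGO1, chr1:35882959-35883258, plus strand: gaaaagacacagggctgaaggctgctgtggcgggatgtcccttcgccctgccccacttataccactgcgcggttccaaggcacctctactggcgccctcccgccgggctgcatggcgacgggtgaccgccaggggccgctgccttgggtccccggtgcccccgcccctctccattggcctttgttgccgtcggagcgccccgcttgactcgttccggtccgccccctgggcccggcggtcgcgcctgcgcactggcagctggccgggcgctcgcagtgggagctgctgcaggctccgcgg
AGO4, chr1:35807766-35808065, plus strand: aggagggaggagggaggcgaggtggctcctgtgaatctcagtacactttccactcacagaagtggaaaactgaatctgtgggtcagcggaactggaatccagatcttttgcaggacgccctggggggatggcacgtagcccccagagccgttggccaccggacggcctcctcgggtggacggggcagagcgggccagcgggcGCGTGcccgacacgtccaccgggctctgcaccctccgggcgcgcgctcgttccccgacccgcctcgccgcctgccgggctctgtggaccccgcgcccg
TNRC6A, chr16:24729401-24729700, plus strand: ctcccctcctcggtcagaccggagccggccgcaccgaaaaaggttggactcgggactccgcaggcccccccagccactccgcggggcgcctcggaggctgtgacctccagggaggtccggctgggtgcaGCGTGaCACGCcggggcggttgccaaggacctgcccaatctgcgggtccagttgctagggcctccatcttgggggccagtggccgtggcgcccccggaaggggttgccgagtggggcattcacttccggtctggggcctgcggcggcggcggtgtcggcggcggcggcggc
The windows of DROSHA and AGO1 held neither motif, that of AGO4 held 1 GCGTG and that of TNRC6A held 2. Of the genes not shown, AGO2 (lower) had no window. DICER1 (higher) had 5, of which the first held 1 GCGTG and the rest held neither motif. Over the 15 windows of the 9 genes, some with several annotated starts, 8 (53.3%) held GCGTG against 36.5% of all 35116 windows, and 0 held CACGTG against 7.26%. A match is a description of the letters and not evidence of binding.

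With shAhR-2 in BE2C, 8 of the 10 genes were called, 4 higher and 4 lower, in a comparison where 75.1% of all 15732 genes tested were called (38% higher, 37.2% lower). In Kelly all 10 were called with shAhR-2, 6 higher and 4 lower, against 75.4% of 15871 genes (37.2% higher, 38.2% lower). With shAhR-1 in BE2C 6 were called, 1 higher and 5 lower, against a background of 52.3% (25.2% higher, 27.1% lower). In the Kelly libraries labelled shAhR-1 5 were called, 3 higher and 2 lower, against 60.5% (29.6% higher, 31% lower). The share called differed from the background in both directions, and with 10 genes chosen by name and no test of the set, nothing about the set is read from the number of calls. Groups without overlap with the controls were common as well. This held for 57.7% and 76.9% of genes tested in BE2C (shAhR-1, shAhR-2) and 63.3% and 77.3% in Kelly. The median log2 fold change of the 10 genes was −0.08 and −0.09 in BE2C (shAhR-1, shAhR-2) and 0.06 and 0.35 in Kelly, where the medians of all genes tested were 0.01, 0.03, 0.00 and −0.01. The median absolute change in BE2C was 0.12 for shAhR-1 and 0.92 for shAhR-2, and in Kelly 0.09 and 0.62, against 0.29, 0.59, 0.32 and 0.55 over all genes.

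**Figure D1:**
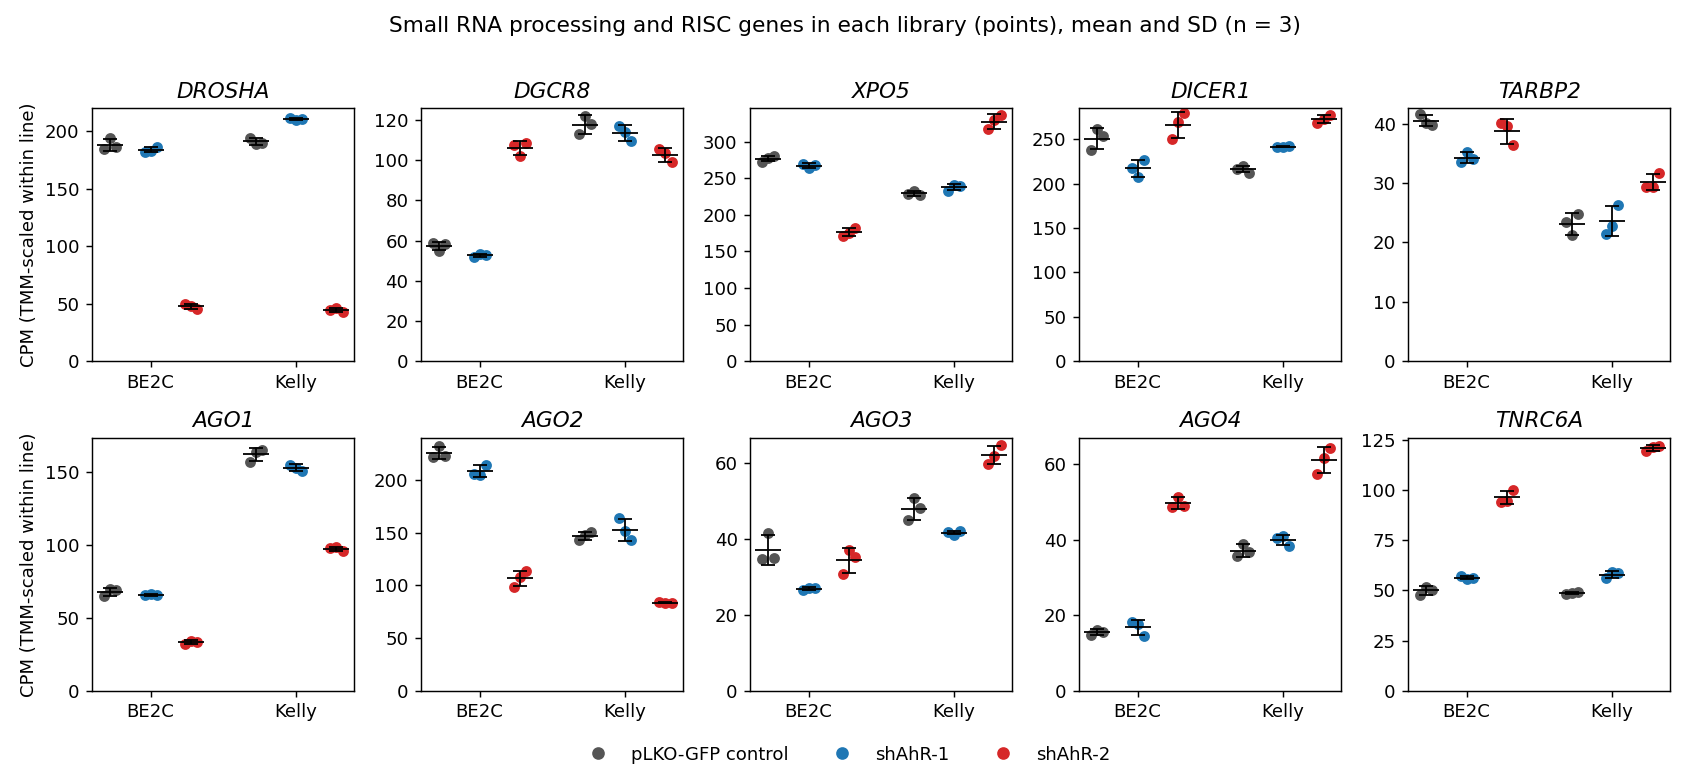
CPM (TMM-scaled within each line, linear axis from 0) of each of the 10 genes in each library, as points coloured by construct, with the mean and SD of 3 libraries as a bar. The shAhR-2 points of DROSHA lie between 42.4 and 49.8 CPM in both lines, far below the other 12 libraries, and those of TNRC6A lie above all others.

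DROSHA (ENSG00000113360, chromosome 5, 31400497–31532196, minus strand, GENCODE release 29 on GRCh38) encodes the nuclease of the Microprocessor. Its level in the BE2C libraries was 184, 194 and 187 CPM in the controls, 182, 183 and 186 with shAhR-1, and 49.8, 48.1 and 45.2 with shAhR-2. In Kelly it was 194, 189 and 190.2 CPM in the controls, 211, 209 and 211 in the libraries labelled shAhR-1, and 44.7, 46.2 and 42.4 with shAhR-2. The 6 shAhR-2 libraries thus lay apart from the other 12, and the smallest raw count behind any of these values was 1790. DROSHA fell with shAhR-2 in both lines, with a log2 fold change of −1.98 ± 0.038 in BE2C (adjusted p = 8.81e-30) and −2.11 ± 0.035 in Kelly (adjusted p = 5.19e-45). Larger absolute changes were seen for 9.34% of genes tested in BE2C and 6.63% in Kelly. With shAhR-1 it was not called in BE2C (−0.03 ± 0.035, adjusted p = 0.432), and it rose slightly in Kelly under that label (0.14 ± 0.031, adjusted p = 0.000131), where the 3 libraries lay above the 3 controls. With shAhR-2 the share of genes with a larger absolute change (BE2C, Kelly) was 28.2% and 38.2% for AGO1 and 25.9% and 33.8% for AGO2. It was 12.6% and 39% for AGO4 and 31.1% and 17.1% for TNRC6A.

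DGCR8 (chromosome 22, 20080232–20111877, plus strand) encodes the protein that recognises the hairpin for DROSHA. In BE2C it was at 58.7, 54.8 and 58.2 CPM in the controls, 51.9, 53.3 and 52.7 with shAhR-1 and 108, 102 and 109 with shAhR-2. It rose with shAhR-2 in that line (0.89 ± 0.042, adjusted p = 3.45e-19). The Kelly controls were already at 113, 122 and 118 CPM, and the shAhR-2 libraries were lower, at 105, 104 and 98.9 (−0.20 ± 0.036, adjusted p = 2.44e-06). With shAhR-1 DGCR8 fell by 0.12 ± 0.044 in BE2C (adjusted p = 0.0197), a call lost without the first control (−0.10, adjusted p = 0.083) or the third (−0.11, adjusted p = 0.0698), and it was not called in Kelly (−0.05 ± 0.036, adjusted p = 0.206). Per kilobase of exon, the ratio of DGCR8 to DROSHA mRNA was 0.324 ± 0.0206 in the BE2C controls (SD, n = 3), 0.304 ± 0.00464 under shAhR-1 and 2.37 ± 0.164 under shAhR-2. In Kelly it was 0.655 ± 0.0346, 0.573 ± 0.0197 and 2.46 ± 0.0639. The ratio was above 1 in the 6 shAhR-2 libraries and below 1 in the other 12.

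The DGCR8 transcript carries the hairpins of MIR3618, ahead of its coding sequence, and of MIR1306, within it, and these are the stretches on which the Microprocessor is known to act. Their mature products are shown because they place those hairpins in the gene, with the seed (bases 2 to 8) in capitals (RefSeq, GRCh38.p14, chromosome 22, plus strand).
hsa-miR-3618, chr22:20085797-20085818: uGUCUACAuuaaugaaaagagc
hsa-miR-1306-5p, chr22:20086072-20086093: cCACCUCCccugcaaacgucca
hsa-miR-1306-3p, chr22:20086112-20086129: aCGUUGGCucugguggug
The 3 seeds differ from each other. Both microRNA genes had 0 counts in all 18 libraries, so mature microRNA levels are not measured here. They and an antisense neighbour share 2.53% of the exonic bases of DGCR8.

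XPO5 (chromosome 6, 43522330–43576075, minus strand), the export receptor, went in opposite directions in the lines with shAhR-2. In BE2C the controls held 273, 277 and 279.7 CPM and the shAhR-2 libraries 172, 175 and 182 (−0.65 ± 0.031, adjusted p = 3.18e-19). In Kelly the controls held 228, 233 and 227 CPM and the shAhR-2 libraries 317, 329 and 336 (0.52 ± 0.029, adjusted p = 3.79e-22). All 3 shAhR-2 libraries were below the controls in BE2C and above them in Kelly. XPO5 was not called with shAhR-1 in either line (−0.05 ± 0.030 and 0.05 ± 0.029, adjusted p = 0.175 and 0.109). In Kelly it was called at a mean CPM of at least 1 (0.06, adjusted p = 0.0466). Of its exonic bases 4.08% lie in POLR1C on the other strand, and the strand setting of the counting is not given in the sources used here.

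DICER1 (chromosome 14, 95086228–95158010, minus strand) encodes the cytoplasmic nuclease that trims the exported hairpin. Its control level was 238 to 261 CPM in BE2C and 212 to 219.9 in Kelly. It rose in Kelly with shAhR-2 (269 to 277 CPM, 0.34 ± 0.028, adjusted p = 2.51e-15) and in the libraries labelled shAhR-1 (241 to 242 CPM, 0.16 ± 0.029, adjusted p = 3.97e-06), in both without overlap with the controls. In BE2C it fell with shAhR-1 (208 to 227 CPM, −0.21 ± 0.038, adjusted p = 2.99e-05). The BE2C shAhR-2 value of 0.09 ± 0.038 (adjusted p = 0.0385) came from overlapping groups, and its call was lost in 8 of 17 alternative analyses, at 0.04 without the first control and 0.05 without the third shAhR-2 library. The level of DICER1 relative to DROSHA, per kilobase of exon, was 0.842 ± 0.0225 and 3.55 ± 0.366 in BE2C (control, shAhR-2) and 0.716 ± 0.0169 and 3.89 ± 0.212 in Kelly.

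TARBP2 (chromosome 12, 53500921–53506431, plus strand), the partner of DICER1 in loading the Argonaute, was among the less abundant genes by CPM. Its exons, 4090 bases in all, are the shortest of the set. Per kilobase it stood 5th of the 10 genes in the BE2C controls and 7th in the Kelly controls. It fell in BE2C with shAhR-1, from 39.8 to 41.5 CPM in the controls to 33.5 to 35.3 (−0.24 ± 0.054, adjusted p = 0.000325). With shAhR-2 it passed no test there (36.3 to 40.1 CPM, −0.07 ± 0.054, adjusted p = 0.261). In Kelly it rose with shAhR-2, from 21.2 to 24.7 CPM to 29.3 to 31.7 (0.38 ± 0.067, adjusted p = 1.33e-06), while under the shAhR-1 label it did not pass (0.03 ± 0.069, adjusted p = 0.725).

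The 4 Argonaute genes did not change alike under shAhR-2. AGO1 (chromosome 1, 35869808–35930528) and AGO2 (chromosome 8, 140520156–140635619, minus strand), whose product is the Argonaute with well-known slicing activity, fell in both lines, and AGO4 (chromosome 1, 35808172–35857890) rose in both. AGO4, AGO1 and AGO3 lie in that order on the plus strand of chromosome 1, with 11917 bases between the first pair and 189 between the second, so neighbours changed in opposite directions. AGO1 was at 64.7, 69.8 and 69.0 CPM in the BE2C controls, 65.7, 66.4 and 65.4 with shAhR-1 and 31.9, 34.4 and 33.6 with shAhR-2 (−1.03 ± 0.047, adjusted p = 1.90e-19). In Kelly the values were 157, 164 and 166 CPM, 155, 153 and 151, and 97.7, 98.8 and 96.1 (−0.73 ± 0.033, adjusted p = 2.21e-26). The shAhR-2 libraries lay below all others of their line. A difference of −0.08 ± 0.032 under the shAhR-1 label in Kelly was called (adjusted p = 0.0214), but not without the second control (adjusted p = 0.0591), the third control (adjusted p = 0.0979) or the third library of that group (adjusted p = 0.0709).

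AGO2 held 222, 233 and 223 CPM in the BE2C controls, 206, 205 and 215 with shAhR-1 and 98.4, 108 and 113 with shAhR-2. It fell with shAhR-2 by 1.08 ± 0.039 on the log2 scale (adjusted p = 1.63e-22), and the shAhR-1 difference was −0.12 ± 0.038 (adjusted p = 0.01), a call lost without the second control (−0.09, adjusted p = 0.0601). In Kelly it held 143, 147 and 150.3 CPM, then 164, 151 and 143 in the libraries labelled shAhR-1, then 83.8, 82.9 and 83.6 with shAhR-2 (−0.82 ± 0.037, adjusted p = 5.54e-26). The Kelly shAhR-1 value of 0.06 ± 0.036 was not called (adjusted p = 0.174) and was called without the third library of that group (0.10, adjusted p = 0.0158).

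AGO4 was the scarcest Argonaute by CPM in the controls, where AGO3 was scarcest per kilobase of exon, and rose most. It went from 14.8, 16.2 and 15.6 CPM in the BE2C controls to 48.7, 51.5 and 49.0 with shAhR-2 (1.68 ± 0.071, 3.21-fold, adjusted p = 1.35e-20), and from 35.7, 38.9 and 36.8 to 57.5, 61.7 and 64.3 in Kelly (0.72 ± 0.049, 1.65-fold, adjusted p = 1.21e-18). With shAhR-1 it was at 14.5 to 18.2 CPM in BE2C and 38.4 to 40.9 in Kelly and was not called (0.11 ± 0.076 and 0.11 ± 0.051, adjusted p = 0.217 and 0.0722). It was called in BE2C without the third shAhR-1 library (0.20, adjusted p = 0.0262), and in Kelly without the second control (0.14, adjusted p = 0.0286) or the third library labelled shAhR-1 (0.13, adjusted p = 0.0398). A mean CPM of at least 1 also gave a call in Kelly (0.12, adjusted p = 0.0409). AGO3 (chromosome 1, 35930718–36072500) was the only Argonaute that fell with shAhR-1 in both lines (−0.46 ± 0.070 and −0.20 ± 0.049, adjusted p = 9.46e-07 and 0.000315). With shAhR-2 it rose in Kelly (0.37 ± 0.047, adjusted p = 5.56e-10) and was not called in BE2C (−0.11 ± 0.068, adjusted p = 0.152), where it was called without the second shAhR-2 library (−0.17, adjusted p = 0.0475).

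Expressed per kilobase of exon, the make-up of Argonaute mRNA shifted while its sum changed less. In the BE2C controls AGO2 made up 61.9 ± 0.674% of the summed level (SD, n = 3), AGO1 21.2 ± 0.46%, AGO4 9.26 ± 0.142% and AGO3 7.59 ± 0.549%. With shAhR-2 AGO4 held 38.9 ± 1.38% and AGO2 38.2 ± 1.36%. In Kelly AGO1 led in the controls with 41.2 ± 0.271%, ahead of AGO2 with 32.7 ± 0.443%. There AGO4 went from 18.03 ± 0.469% to 35.6 ± 1.20% with shAhR-2. The summed level was 23.7 ± 0.774 CPM per kilobase in the BE2C controls and 17.9 ± 0.798 with shAhR-2, and in Kelly 27.6 ± 0.765 and 23.1 ± 0.499. With shAhR-1 the AGO2 share was 61.3 ± 1.46% in BE2C and 34.3 ± 1.20% in Kelly. Shares within a library do not depend on the scaling, but they rest on exon lengths from GENCODE release 29, which may not be the annotation the counts were made with.

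**Figure D2:**
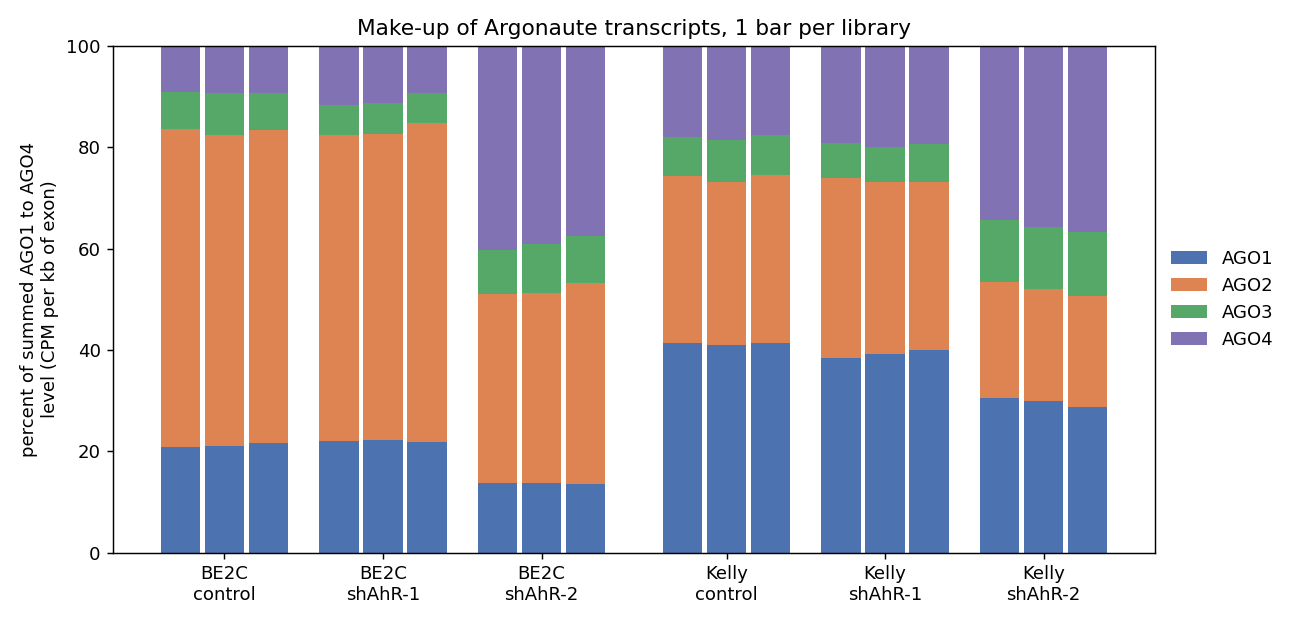
Percent of the summed AGO1 to AGO4 level (CPM per kilobase of exon) held by each gene, 1 stacked bar per library, 3 libraries per group. AGO4 holds 34.3% to 40.2% in the 6 shAhR-2 libraries and 9.10% to 19.998% in the other 12.

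TNRC6A (chromosome 16, 24610209–24827632, plus strand), the GW182 scaffold between Argonaute and the deadenylases, was the 1 gene of the set called with the same sign in all 4 comparisons with control, where 15.2% of the 14680 genes tested in both lines were (30.4% were called in all 4 with any signs). It was at 47.8, 51.8 and 50.4 CPM in the BE2C controls, 57.4, 55.6 and 56.1 with shAhR-1 and 94.3, 94.8 and 100.1 with shAhR-2. In Kelly it was at 48.1, 48.9 and 49.2 CPM in the controls, 56.0, 58.9 and 58.7 under the shAhR-1 label, and 119, 122 and 122 with shAhR-2. No shRNA library overlapped the controls of its line, as for 57.7% to 77.3% of genes tested in the single comparisons. With shAhR-1 the rise was 0.17 ± 0.045 in BE2C and 0.25 ± 0.040 in Kelly (adjusted p = 0.00148 and 4.77e-07). With shAhR-2 it was 0.95 ± 0.044 and 1.31 ± 0.038 (adjusted p = 1.69e-19 and 3.40e-34).

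**Figure D3:**
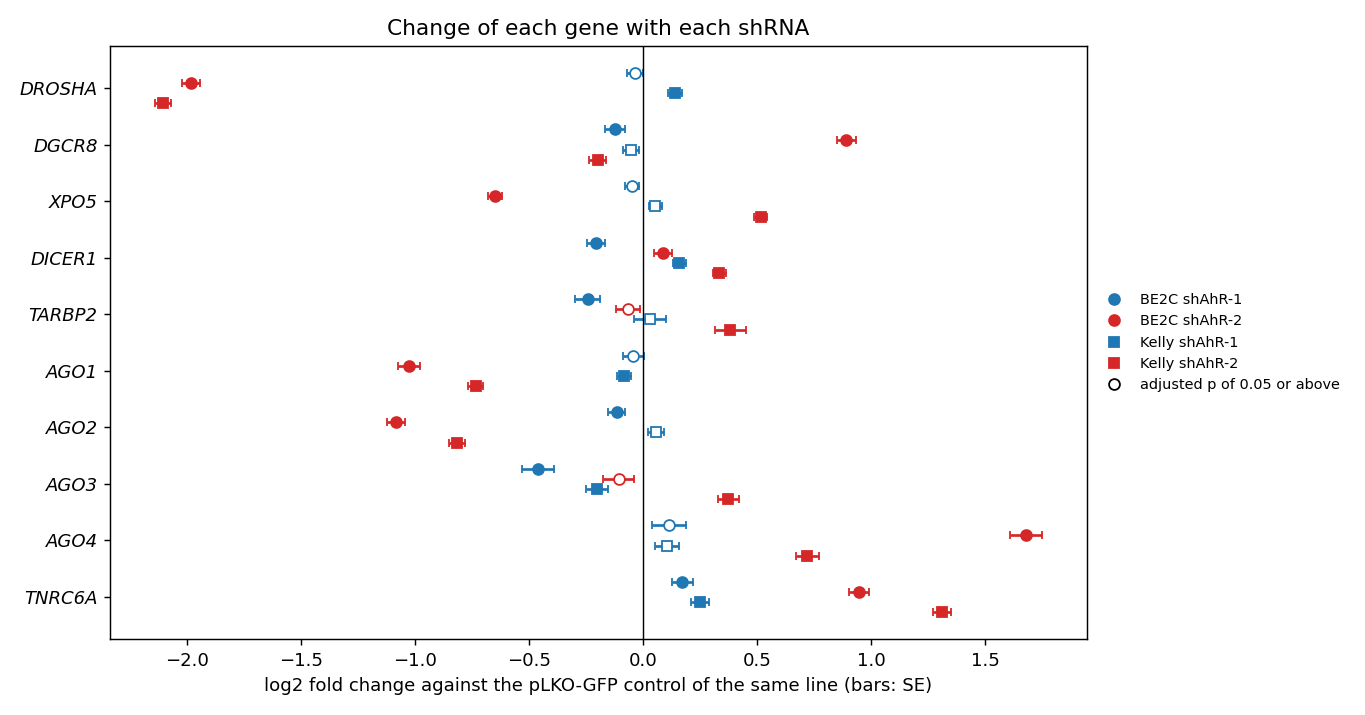
Log2 fold change against the pLKO-GFP control of the same line (x axis, bars are SE) for each gene, with circles for BE2C, squares for Kelly, blue for shAhR-1 and red for shAhR-2. Open symbols did not pass an adjusted p of 0.05. DROSHA, AGO1 and AGO2 lie to the left and AGO4 and TNRC6A to the right in both lines with shAhR-2, while DGCR8 and XPO5 each lie on opposite sides of 0 in BE2C and Kelly.

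The hairpins were then compared with each other, in the same 3-group fit of each line, so that the controls enter its filter, scaling and estimate of the spread but not the contrast itself. All 10 genes were called in BE2C, against 72.4% of genes tested, and all 10 in Kelly, against 77.4%. In each line 4 were higher with shAhR-1 (background 35.9% in BE2C, 39.3% in Kelly) and 6 were lower (36.5% and 38.2%). DROSHA was higher with shAhR-1 than with shAhR-2 by 1.95 ± 0.038 in BE2C and 2.25 ± 0.035 in Kelly (adjusted p = 1.50e-29 and 3.36e-46). AGO1 (0.98 ± 0.047 and 0.65 ± 0.033) and AGO2 (0.97 ± 0.039 and 0.87 ± 0.037) were higher with shAhR-1 too. AGO4 (−1.57 ± 0.070 and −0.61 ± 0.050), TNRC6A (−0.77 ± 0.043 and −1.06 ± 0.038), AGO3 (−0.35 ± 0.069 and −0.58 ± 0.048), DICER1 (−0.29 ± 0.038 and −0.18 ± 0.028) and TARBP2 (−0.18 ± 0.054 and −0.35 ± 0.067) were lower with it in both lines. DGCR8 and XPO5 differed between the hairpins in opposite directions in the 2 lines (−1.01 ± 0.042 and 0.15 ± 0.036 for DGCR8, 0.60 ± 0.031 and −0.46 ± 0.029 for XPO5).

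Over both lines, 6 of the 10 genes were called in the same direction with shAhR-2, 3 higher (DICER1, AGO4, TNRC6A) and 3 lower (DROSHA, AGO1, AGO2), where 53.1% of genes tested in both lines were. With shAhR-1 this held for 2 (AGO3 lower, TNRC6A higher), against 35.3%. Markers of cell types were read beside these values, as CPM of the whole library without TMM. The summed level of 10 sympathetic neuroblast markers was 5329 to 5513 CPM in the BE2C controls and 2917 to 3109 with shAhR-2, and in Kelly 10246 to 10724, with 5700 to 5854 in the libraries labelled shAhR-1 and 6290 to 6352 with shAhR-2. Over 5 Schwann cell markers the sum went from 2.26 to 3.19 CPM in the BE2C controls to 13.3 to 14.5 with shAhR-2, and from 2.37 to 2.81 to 7.32 to 7.47 in Kelly. The 7 fibroblast markers summed to 90.6 to 94.9 CPM in the BE2C controls and 176 to 201 with shAhR-2, and to 93.0 to 98.2 and 82.0 to 83.5 in Kelly, with COL1A2 at 0 with shAhR-2 in both lines. With shAhR-1 they summed to 99.9 to 106 CPM in BE2C and 54.9 to 63.8 in Kelly. The neuroblast sum with shAhR-1 in BE2C was 4888 to 4966 CPM. The Schwann cell sums with shAhR-1 were 2.02 to 2.93 CPM in BE2C and 1.94 to 2.41 in Kelly. The part of these markers in the results was not tested, and in bulk RNA fewer cells of a type and less RNA per cell cannot be told apart.

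The control libraries of the lines were set against each other to describe the starting levels. In 1 fit of all 18 libraries 9 of the 10 genes were called between the controls, 5 higher and 4 lower in BE2C, against 76.2% of 17136 genes (37.2% higher, 39% lower). AGO4 and AGO1 were lower in BE2C by 1.18 ± 0.065 and 1.18 ± 0.037 on the log2 scale, and DGCR8 by 0.96 ± 0.040. TARBP2 (0.89 ± 0.064), AGO2 (0.70 ± 0.039), XPO5 (0.35 ± 0.030) and DICER1 (0.29 ± 0.035) were higher in BE2C, and AGO3 was lower (−0.29 ± 0.060). DROSHA was not called at 0.06 ± 0.034 (adjusted p = 0.132) but was called in 4 of 25 alternative settings, at 0.09 with RLE scaling and with DESeq2 (adjusted p = 0.0129 and 0.00648), 0.13 at a mean CPM of at least 1 (adjusted p = 0.000583) and 0.14 with no filter (adjusted p = 0.000152). Over the 25 settings it ran from 0.03 to 0.14, with adjusted p from 0.000152 to 0.432. TNRC6A was called at 0.11 ± 0.042 (adjusted p = 0.0132), but not without the second BE2C control (0.09, adjusted p = 0.0851), and stood at 0.20 with no filter on low counts. The line and its own count table cannot be told apart in this comparison.

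Per kilobase of exon the order of the genes in the BE2C controls was XPO5 (33.4 ± 0.403 CPM per kilobase), DROSHA (24.9 ± 0.645), DICER1 (21.0 ± 0.948), AGO2 (14.7 ± 0.352), TARBP2 (10.2 ± 0.245), DGCR8 (8.05 ± 0.312), AGO1 (5.02 ± 0.191), TNRC6A (3.98 ± 0.158), AGO4 (2.19 ± 0.0964) and AGO3 (1.801 ± 0.188). No neighbours in that order overlapped between libraries. In the Kelly controls the order was XPO5 (26.2 ± 0.341), DROSHA (24.0 ± 0.409), DICER1 (17.2 ± 0.289), DGCR8 (15.7 ± 0.570), AGO1 (11.4 ± 0.303), AGO2 (9.04 ± 0.216), TARBP2 (5.51 ± 0.436), AGO4 (4.98 ± 0.208), TNRC6A (3.67 ± 0.0353) and AGO3 (2.21 ± 0.129), and only TARBP2 and AGO4 overlapped. With shAhR-1 the order of the control was kept in each line. With shAhR-2 DROSHA stood in the 8th place in both lines, at 6.25 ± 0.313 and 5.59 ± 0.251, level with AGO2 in BE2C, where the libraries of the pair overlapped. DICER1 and XPO5, which also overlapped in BE2C, were then the leading pair in both lines.

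Whether a hairpin acted differently in the lines was tested as an interaction, the change in BE2C less that in Kelly. For shAhR-2, 9 of 10 genes were called, 2 higher and 7 lower, against 54.7% of genes (28.8% higher, 25.8% lower), and DROSHA was the exception (0.11 ± 0.052, adjusted p = 0.0805). It was called without the second BE2C control (0.13, adjusted p = 0.0442) or the third BE2C shAhR-2 library (0.14, adjusted p = 0.0252). The largest were XPO5 (−1.18 ± 0.042), DGCR8 (1.07 ± 0.056) and AGO4 (0.94 ± 0.086). For shAhR-1, 5 were called, 0 higher and 5 lower, against 35.7% (17.5% higher, 18.2% lower), the largest being DICER1 (−0.36 ± 0.049, adjusted p = 6.02e-08). Of the other 4, the calls of AGO2, AGO3 and TARBP2 were each lost in 2 analyses that left out 1 library. AGO2 was at −0.15 without the first Kelly control and −0.11 without the first Kelly library labelled shAhR-1 (adjusted p = 0.0526 and 0.118). AGO3 was at −0.16 without the second BE2C control and −0.21 without the first Kelly control (adjusted p = 0.147 and 0.082). TARBP2 was at −0.20 without the second Kelly control and −0.17 without the third Kelly library labelled shAhR-1 (adjusted p = 0.0958 and 0.162). The shAhR-1 interaction of XPO5 was not called (−0.10 ± 0.042, adjusted p = 0.0685) but was called in 5 of 25 alternative settings.

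Genes with the most similar pattern were found by Pearson's r of log2 CPM, centred within each line, over the 18 libraries and 9779 genes at 5 CPM or more in both lines. For DROSHA these were UNG (r = 1.00), ACTN4 (r = 0.998) and GPX1 (r = 0.998), a DNA repair glycosylase gene, an actin crosslinker gene and a peroxidase gene. For AGO1 they were HAND2 (r = 0.994), SF3A1 (r = 0.994) and PEBP1 (r = 0.994). For DICER1 they were MAN2A1 (r = 0.935), SOCS5 (r = 0.925) and NRBP1 (r = 0.922). The libraries fall into 6 groups, so r mostly reflects the group means, and 1643 genes had r above 0.9 with DROSHA, 1330 with AGO1 and 12 with DICER1.

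Other genes of the pathway were read from 7 lists of 107 genes, of which 100 were tested in each line. In BE2C 59% of them were called with shAhR-1 (21 higher, 38 lower), where 52.3% of all genes were (25.2% higher, 27.1% lower). With shAhR-2 in BE2C it was 83% (27 higher, 56 lower) against 75.1% (38% higher, 37.2% lower). In Kelly 71% were called under the shAhR-1 label (38 higher, 33 lower) against 60.5% (29.6% higher, 31% lower), and 87% with shAhR-2 (39 higher, 48 lower) against 75.4% (37.2% higher, 38.2% lower). Their median log2 fold changes were −0.04 and −0.19 in BE2C and 0.02 and −0.06 in Kelly, beside 0.01, 0.03, 0.00 and −0.01 over all genes. These shares and medians of all genes are the background for each list that follows, and no list was tested as a set.

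Among 15 Microprocessor partners, 12 fell and 2 rose in BE2C with shAhR-2 and 11 fell and 4 rose in Kelly, where 37.2% and 38.2% of all genes fell and 38% and 37.2% rose. The numbers with shAhR-1 were 8 lower and 3 higher in BE2C and 7 lower and 5 higher in Kelly, beside 27.1% and 31% of all genes lower and 25.2% and 29.6% higher. The list medians were −0.15 and −0.41 in BE2C and −0.09 and −0.20 in Kelly. DDX5, a helicase bound to DROSHA, rose in all 4 comparisons (with shAhR-1 before shAhR-2, 0.38 ± 0.029 and 0.52 ± 0.029 for BE2C, then 0.48 ± 0.026 and 0.18 ± 0.026 for Kelly), as did its relative DDX17 (0.08 ± 0.027 and 0.13 ± 0.027, 0.15 ± 0.025 and 0.10 ± 0.025). The DDX17 call with shAhR-1 in BE2C was lost without the first control and without the first or the third shAhR-1 library (adjusted p = 0.0617 to 0.0684). SMAD4 (−0.44 ± 0.052 and −0.28 ± 0.052, −0.44 ± 0.055 and −0.42 ± 0.055), the splicing factor gene SRSF3 (−0.27 ± 0.030 and −0.55 ± 0.030, −0.20 ± 0.028 and −0.94 ± 0.028) and HNRNPA1 (−0.40 ± 0.024 and −0.23 ± 0.024, −0.62 ± 0.024 and −0.17 ± 0.024), which encodes an RNA-binding protein, fell in all 4.

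Of 15 export, Dicer partner and loading genes, 10 and 13 fell in BE2C and 10 and 8 in Kelly, and 2, 1, 2 and 4 rose. Over all genes 27.1%, 37.2%, 31% and 38.2% fell and 25.2%, 38%, 29.6% and 37.2% rose, and the list medians were −0.25, −0.45, −0.31 and −0.14. TSN, a subunit of the C3PO nuclease that removes the passenger strand, fell in all 4 (−0.43 ± 0.038 and −0.71 ± 0.038, −0.58 ± 0.047 and −0.46 ± 0.046). HSP90AA1 and PTGES3, which encode the chaperone and cochaperone used in loading Argonautes, fell as well, by 0.45 to 0.96 and 0.61 to 1.13 on the log2 scale. TSNAX, the partner of TSN, rose with both hairpins in BE2C (0.12 ± 0.047 and 0.34 ± 0.046) and with shAhR-2 in Kelly (0.30 ± 0.049). Under the shAhR-1 label in Kelly TSNAX was not called (−0.09 ± 0.050, adjusted p = 0.106).

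In the list of GW182 paralogs and RISC-bound proteins, 6 and 6 of 15 rose in BE2C and 8 and 7 in Kelly, while 4 and 3, then 5 and 6, fell. Over all genes 25.2%, 38%, 29.6% and 37.2% rose and 27.1%, 37.2%, 31% and 38.2% fell, and the list medians were 0.03, 0.26, 0.28 and 0.11. Both paralogs of TNRC6A rose in all 4 comparisons, TNRC6B by 0.22 ± 0.050 and 0.74 ± 0.049 in BE2C and 0.28 ± 0.034 and 0.52 ± 0.034 in Kelly, and TNRC6C by 0.34 ± 0.043 and 0.26 ± 0.043, then 0.87 ± 0.040 and 0.83 ± 0.040. All 3 GW182 genes were therefore higher with each hairpin in each line. IPO8, an import receptor that binds Argonautes, fell most with shAhR-1 (−0.95 ± 0.043 in BE2C, −0.67 ± 0.034 in Kelly). With shAhR-2 in BE2C it stood at −0.10 ± 0.041 (adjusted p = 0.0273). That call did not survive RLE scaling (adjusted p = 0.052), DESeq2 (adjusted p = 0.0573), a mean CPM of at least 1 (−0.04, adjusted p = 0.318), or leaving out the third control (adjusted p = 0.062) or the second shAhR-2 library (adjusted p = 0.0888). GIGYF2, a translational repressor gene, fell in all 4 (−0.15 ± 0.036 and −0.69 ± 0.037, −0.21 ± 0.035 and −0.16 ± 0.035).

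Of 19 deadenylation genes 6 rose and 3 fell with shAhR-1 in BE2C, 13 rose and 0 fell in the Kelly libraries labelled shAhR-1, and 10 rose and 8 fell with shAhR-2 in each line. In that order of comparisons (shAhR-1 in BE2C and Kelly, then shAhR-2) 25.2%, 29.6%, 38% and 37.2% of all genes rose and 27.1%, 31%, 37.2% and 38.2% fell, and the list medians were 0.05, 0.24, 0.12 and 0.14. The largest changes in the list with shAhR-2 were falls, of 3 genes named after their values were seen. CNOT7, a catalytic subunit of the CCR4-NOT deadenylase, was at −2.06 ± 0.035 in BE2C and −1.64 ± 0.034 in Kelly, and its subunit CNOT9 at −1.78 ± 0.040 and −1.67 ± 0.040. PABPC1, the poly(A)-binding protein gene, was at −1.53 ± 0.026 and −1.17 ± 0.026. PAN3, a subunit of the first deadenylase recruited by GW182 proteins, rose in all 4 (0.42 ± 0.067 and 0.78 ± 0.065, 0.52 ± 0.053 and 0.46 ± 0.053), and so did the antiproliferative genes BTG1 (0.57 ± 0.051 and 0.85 ± 0.051, 0.59 ± 0.059 and 0.67 ± 0.058) and TOB2 (0.57 ± 0.046 and 0.22 ± 0.047, 0.77 ± 0.037 and 0.59 ± 0.037). In the decapping and P-body list of 20, 8 and 14 fell in BE2C and 7 and 11 in Kelly, and 2, 4, 6 and 4 rose. The shares of all genes that fell were 27.1%, 37.2%, 31% and 38.2%, and the list medians were −0.13, −0.30, 0.06 and −0.21. The genes of 3 subunits of the LSM ring, which binds deadenylated mRNA ends, fell in all 4 comparisons, with LSM4 at −0.83 ± 0.040 and −1.69 ± 0.042 in BE2C and −0.96 ± 0.039 and −1.58 ± 0.041 in Kelly. LSM3 (−0.37 ± 0.055 and −1.44 ± 0.058, −0.21 ± 0.051 and −1.91 ± 0.057) and LSM5 (−0.45 ± 0.039 and −0.90 ± 0.040, −0.30 ± 0.047 and −1.24 ± 0.049) fell too. The other ring genes listed did not fall in all 4. LSM2, LSM6 and LSM7 were called lower with shAhR-2 in both lines but not with shAhR-1, and LSM7 rose in Kelly under that label (0.38 ± 0.046). LSM1 was called lower only with shAhR-1 in BE2C (−0.22 ± 0.086). DCP1B, a decapping cofactor gene, rose (1.27 ± 0.14 and 2.00 ± 0.13, 0.39 ± 0.083 and 0.50 ± 0.082).

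**Figure D4:**
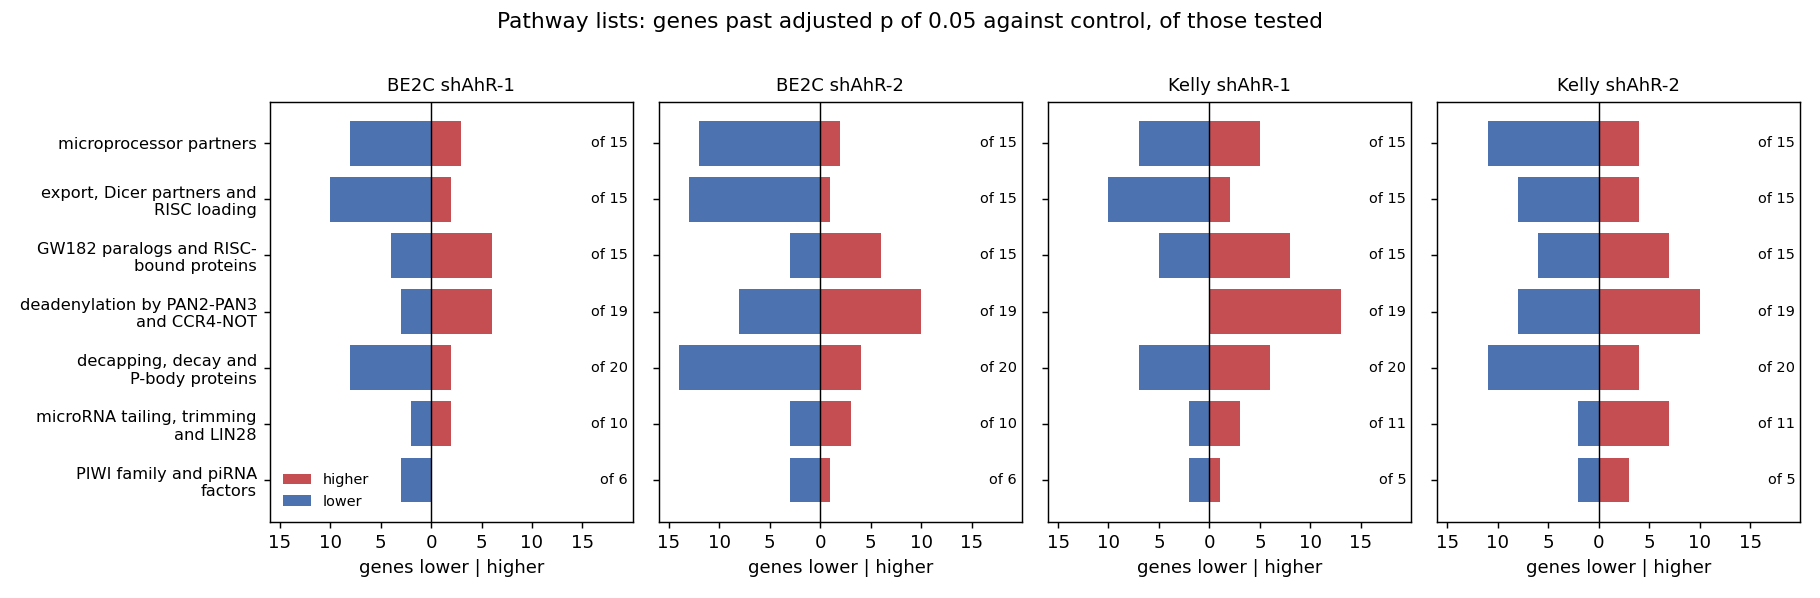
Number of genes of each pathway list called lower (left, blue) or higher (right, red) than control, 1 panel per comparison, with the number tested at the right edge. In the deadenylation row of the Kelly shAhR-1 panel 13 of 19 genes are higher and 0 lower, and in the row of export and loading genes the blue bars are longer in each panel.

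Of the tailing, trimming and LIN28 genes, 10 were tested in BE2C, where 2 rose and 2 fell with shAhR-1 and 3 rose and 3 fell with shAhR-2. Among 11 tested in Kelly the numbers were 3 and 2, then 7 and 2. Of all genes 52.3% and 75.1% were called in BE2C and 60.5% and 75.4% in Kelly, and the list medians were −0.06, 0.0042, −0.17 and 0.16. LIN28B, which encodes the protein that blocks let-7 processing, rose in all 4 (0.28 ± 0.032 and 0.59 ± 0.032, 0.45 ± 0.027 and 0.28 ± 0.027), and the ribonuclease gene PARN fell (−0.46 ± 0.067 and −0.37 ± 0.066, −0.36 ± 0.067 and −0.83 ± 0.068). BCDIN3D, a methyltransferase gene, rose by 0.46 ± 0.086 and 0.19 ± 0.086, then 0.58 ± 0.11 and 0.42 ± 0.11. Its BE2C shAhR-2 call (adjusted p = 0.0428) was lost in several settings, to adjusted p = 0.263 without the third shAhR-2 library, 0.109 without the second control, 0.164 without the third, and 0.0717 to 0.0727 without any 1 of the shAhR-1 libraries. Without the third shAhR-2 library the value was 0.12.

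The PIWI proteins, the germline branch of the Argonaute superfamily, had few counts. Among 12 PIWI and piRNA genes 6 were tested in BE2C and 5 in Kelly. TDRKH, a Tudor domain gene, was lower in all 4 comparisons (−0.55 ± 0.050 and −0.16 ± 0.049, −0.75 ± 0.071 and −0.86 ± 0.070), though with a mean CPM of at least 1 the BE2C shAhR-2 value of −0.10 was not called (adjusted p = 0.0535). In BE2C 3 of the list fell with each hairpin, and 0 and 1 rose. In Kelly 2 fell in each comparison, and 1 and 3 rose, out of too few genes to set against the shares of all genes. PIWIL1 and PIWIL3 had at most 6 and 2 counts in any library and were not tested. PIWIL4 had 2, 10 and 3 counts in the BE2C controls, 4, 2 and 8 with shAhR-1 and 72, 28 and 28 with shAhR-2 (adjusted p = 5.33e-05). In Kelly it had 1, 2 and 2 counts, 2 in each library labelled shAhR-1, and 36, 32 and 44 with shAhR-2 (adjusted p = 1.49e-08). PIWIL2 had 2 to 12 counts in the BE2C controls and 6 to 30 with shAhR-2 (adjusted p = 0.0693), and 2 to 7 and 16 to 42 in Kelly (adjusted p = 0.000145). No fold is given for PIWIL2 and PIWIL4, whose control counts are this low.

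Host transcripts of microRNAs, which the Microprocessor cuts, were read as the 74 rows with a symbol of the form MIR…HG, a rule made after the DROSHA values had been seen. Of 26 tested in BE2C, 50% were called with shAhR-1 (9 higher, 4 lower) and 84.6% with shAhR-2 (16 higher, 6 lower). Of 35 tested in Kelly, 45.7% were called in the libraries labelled shAhR-1 (8 higher, 8 lower) and 62.9% with shAhR-2 (10 higher, 12 lower). These shares stand beside the backgrounds of 52.3%, 75.1%, 60.5% and 75.4%, with 25.2%, 38%, 29.6% and 37.2% of all genes higher. The median log2 fold change of the rows was 0.36 with shAhR-1 and 0.68 with shAhR-2 in BE2C, and 0.14 and 0.05 in Kelly. DROSHA was not called in BE2C with shAhR-1, rose slightly in Kelly under that label, and fell with shAhR-2 in both lines. The rows tested differ between the lines, and a relation of these medians to DROSHA was not tested.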

How the data were processed

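RNA sequencing counts per gene were analysed for 18 libraries, 3 in each of 6 groups. The authors deposited raw counts, 1 table per line with 39368 genes and every column tied to a sample. RNA came from a miRNeasy kit and libraries from a RiboErase kit, per the labels' protocols, so ribosomal RNA was removed and non-polyadenylated RNA kept. Per the submitters' processing notes, CASAVA 1.8.2 and STAR 2.7.9a were used with GRCh38.p7. For the counter, annotation, strand setting and hairpins, the sources used here give nothing.

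Each line was fitted alone (3 groups), and line comparisons and interactions came from 1 fit of all 18 libraries, with filterByExpr, TMM, glmQLFit and glmQLFTest in edgeR 4.0.16 (R 4.3.3). Each SE is the log2 fold change divided by the root of F. Calls used a Benjamini-Hochberg adjusted p below 0.05 over all genes tested. Levels per kilobase use TMM over all 18 libraries and the exon union in GENCODE release 29. log2 CPM for likeness used a prior count of 2. Of the counts from 1 to 20, between 68.3% and 72.5% were even, which leaves it unclear whether mates were counted separately, and halved counts were tried. MicroRNA host rows were an addition after the data were seen.

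The members and lists were chosen with earlier results of these data known. All members are named. From each pathway list up to 3 genes of each direction are named, those called with 1 sign in all 4 comparisons with control and the largest smallest change, and PIWIL1 to PIWIL4. The likeness rule took the 3 highest r. Alternatives were RLE scaling, no filter, a mean CPM of at least 1, DESeq2 1.42.0, a replicate block, leaving out each library, a fit of only the 2 groups compared, halved counts and leaving out mitochondrial genes. Same-numbered libraries showed no shared deviation over all genes tested, a check that noise at low counts limits. The fits were tested on simulated data. Python 3.11.15, numpy 2.4.6, pandas 2.3.3 and matplotlib 3.10.9 were used for annotation and figures.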

Additional observations from a re-analysis of the deposited data

Results flagged for a closer look

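The effect of a hairpin differed between the lines for several genes of the set, by edgeR's quasi-likelihood test of the interaction (log2 change in BE2C less that in Kelly, adjusted over all genes tested). With shAhR-2 the difference was −1.18 ± 0.042 for XPO5 (adjusted p = 3.34e-28), which fell in 3 of 3 BE2C libraries and rose in 3 of 3 Kelly libraries, and 1.07 ± 0.056 for DGCR8 (adjusted p = 8.42e-22). It was 0.94 ± 0.086 for AGO4 (adjusted p = 2.84e-13) and −0.38 ± 0.057 for TNRC6A (adjusted p = 1.13e-07), which rose in both lines. For AGO1 it was −0.31 ± 0.054 (adjusted p = 3.01e-06) and for AGO2 −0.29 ± 0.056 (adjusted p = 2.45e-05), genes that fell in both. AGO3 differed by −0.50 ± 0.085 (adjusted p = 1.65e-06), TARBP2 by −0.47 ± 0.090 (adjusted p = 1.53e-05) and DICER1 by −0.27 ± 0.049 (adjusted p = 6.92e-06).

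With shAhR-1, 5 genes differed between the lines. DICER1 differed by −0.36 ± 0.049 (adjusted p = 6.02e-08), falling in 3 of 3 BE2C libraries and rising in 3 of 3 Kelly libraries labelled shAhR-1, and DROSHA by −0.17 ± 0.048 (adjusted p = 0.00455). TARBP2 (−0.27 ± 0.092, adjusted p = 0.0197), AGO3 (−0.25 ± 0.087, adjusted p = 0.0195) and AGO2 (−0.17 ± 0.055, adjusted p = 0.0152) lost their calls when single libraries were left out, as given in the report.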

How the results depend on the processing

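Over 17 alternatives per comparison within a line, the shAhR-2 falls of DROSHA, AGO1 and AGO2 and the rises of AGO4 and TNRC6A kept direction and call in both lines, with DROSHA at −2.03 to −1.93 in BE2C and −2.14 to −2.07 in Kelly. Of 1770 recomputed values of the 10 genes, 1720 kept direction and side of the threshold, 21 lost a call, 18 gained one and 11 changed sign. The sign changes, with those of the target gene AHR, were in values near 0 that were not called: TARBP2 in Kelly with shAhR-1 (−0.0615 to 0.0911 over the libraries left out, below 0 without the second control or the third shAhR-1 library), AHR in the same comparison (0.0718 with the replicate block, −0.61 to 0.35 over the libraries left out) and the AGO4 interaction for shAhR-1. The latter was −0.00569 with RLE scaling, −0.0146 with no filter, −0.00895 at mean CPM 1 or more, −0.00577 with DESeq2, and −0.0473 to 0.114 over the libraries left out. The cause was not tested.

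Of 177 recomputed counts of genes called, 176 were within 1.5 times the count given. The exception was the shAhR-1 interaction, with 3 of 10 called without the first Kelly control, and 3 to 5 over all libraries left out. RLE scaling moved Kelly control levels per kilobase to 0.969 of their value. Deviations of same-numbered libraries from their group means correlated at −0.0191 to 0.0257 over all genes tested. Noise at low counts could hide a shared deviation there, so the check does not settle whether replicate numbers pair libraries. With the replicate block the calls stayed at 6, 8, 5 and 10 of 10 against control (BE2C, then Kelly, shAhR-1 first), 10 and 10 between hairpins, and 5 and 9 for the interactions. AHR counts are too low in BE2C for a test across genes.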
